A study of Mus musculus with 18 samples.

Results

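Immediate early genes were examined as a set of 10, *Fos*, *Fosb*, *Jun*, *Junb*, *Egr1*, *Npas4*, *Nr4a1*, *Arc*, *Ier2* and *Dusp1*, in the spinal dorsal horn (DHSC) on the injected side of mice at 2 h after formalin. They were picked by their symbols from the 55573 Ensembl genes of the count table, and each symbol matched 1 gene. The 18 samples came from 3 groups of 6, F1/proestrus females, F2/metestrus females and males, all adult C57BL/6J mice of 8 to 12 weeks. Every mouse had received 2% formalin into a hind paw at 8 µl per 20 g of body weight, had been watched in the hour that followed, and gave tissue from lumbar segments 3 to 5 on the injected side. F1 females had a short quiet period (interphase) between the phases of pain behavior and were in proestrus, whereas F2 females had a long interphase and were in metestrus, as read from vaginal smears. Behavior and cycle stage therefore cannot be told apart between the female groups. The smears were taken from the females after the behavior test and before the tissue was collected. Sex and this handling therefore cannot be told apart between males and females. Uninjected mice were not analysed here, so the values are levels after formalin, and how far formalin or handling had moved them was not tested.

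Immediate early genes are switched on within minutes of a stimulus without new protein synthesis, mainly by phosphorylation of CREB and of the ternary complex factors that sit with SRF on their promoters. Their messengers are short-lived. In the dorsal horn, staining for FOS is a classic marker of neurons activated by noxious input from the periphery. The set holds subunits of the dimeric factor AP-1 (*Fos*, *Fosb*, *Jun*, *Junb*), other transcription factors (*Egr1*, *Npas4*, *Nr4a1*) and genes with other roles (*Arc*, a synaptic protein that promotes removal of AMPA receptors, *Ier2*, a nuclear protein, and *Dusp1*, a phosphatase that switches off MAP kinases).

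Promoter sequences of 4 of these genes are shown, picked by whether the genes varied together between samples. *Fos*, *Junb* and *Nr4a1* did so over all samples, and *Jun*, which did not follow them over all samples, is shown beside them. Its r with them was 0.709 to 0.801 in the first library series (described below) and -0.685 to -0.385 in the second. Each is the 250 bases before the RefSeq start of the gene on GRCm38.p6, written 5′ to 3′ along the gene, with capitals for a short CRE motif (TGACG or its reverse complement, part of the binding site of CREB) or an EGR site (GCGNGGGCG or its reverse complement).

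*Fos*, chr12:85473640-85473889, plus strand: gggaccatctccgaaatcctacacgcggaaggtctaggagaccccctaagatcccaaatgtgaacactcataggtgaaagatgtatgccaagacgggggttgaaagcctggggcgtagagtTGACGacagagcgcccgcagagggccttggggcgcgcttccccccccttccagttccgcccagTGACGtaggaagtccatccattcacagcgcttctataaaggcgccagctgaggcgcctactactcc

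*Junb*, chr8:84978749-84978998, minus strand: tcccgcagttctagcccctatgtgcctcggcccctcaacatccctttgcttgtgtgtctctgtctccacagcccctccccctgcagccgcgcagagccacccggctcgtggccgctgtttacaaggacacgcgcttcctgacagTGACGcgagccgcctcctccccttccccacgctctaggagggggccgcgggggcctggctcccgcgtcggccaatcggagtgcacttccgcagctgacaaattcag

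*Nr4a1*, chr15:101266596-101266845, plus strand: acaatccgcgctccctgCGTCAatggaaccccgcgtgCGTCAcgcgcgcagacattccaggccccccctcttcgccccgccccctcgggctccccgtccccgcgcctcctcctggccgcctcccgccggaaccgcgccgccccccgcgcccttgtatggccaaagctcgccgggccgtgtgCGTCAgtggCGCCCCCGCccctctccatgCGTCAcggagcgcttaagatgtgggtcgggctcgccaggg

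*Jun*, chr4:95052223-95052472, minus strand: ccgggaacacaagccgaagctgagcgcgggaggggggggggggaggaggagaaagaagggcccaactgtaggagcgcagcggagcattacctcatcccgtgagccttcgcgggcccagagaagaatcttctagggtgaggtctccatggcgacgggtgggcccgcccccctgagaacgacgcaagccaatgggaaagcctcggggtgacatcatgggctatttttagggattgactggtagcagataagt

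Of the 10 genes 7 had an entry in the RefSeq promoter table, and *Egr1*, *Arc* and *Ier2* had none. A short CRE motif lay in 6 of these 7, against 17.8% of all 32851 promoters of the same length. *Jun* was the exception and had no exact match, while variants such as the TGACATCA in its window were not searched for. *Fosb*, *Dusp1* and *Npas4*, not shown, held the short motif too. In *Fos* the short motifs began 129 and 66 bases before the start, in *Junb* 1 began at 106, and *Nr4a1* held 4, at 233, 213, 69 and 40. The full CRE (TGACGTCA, which contains the short one) was found in *Dusp1* alone, 1 of 7, at 143 bases before the start, against 1.55% of all promoters. An EGR site lay in *Fosb* and *Nr4a1*, 2 of 7, against 4.70%. An AP-1 site (TGANTCA) and the CArG box bound by SRF were found in 0 of 7, against 6.75% and 1.47%, within these 250 bases only and on both strands. Whether any of these motifs bears on how the genes varied together was not tested. The RefSeq start lies downstream of the most distal start that GENCODE gives the gene for *Dusp1* (by 53656 bases), *Nr4a1* (12577), *Npas4* (345) and *Fosb* (6), so the windows of these 4 genes, and with them the full CRE of *Dusp1*, belong to the RefSeq start alone.

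The samples held 73590509 to 125724156 counted reads. By their library numbers in the count table they fell into 2 series, 27 to 35 and 188 to 196, and each series held 3 samples of every group. Between the series 6637 of 24038 genes tested differed (27.6%), so for several of the results values within a series are also given. All 15 dorsal horn neuron markers listed were detected, with a summed level of 301 to 503 CPM (counts scaled to a common library total) over the 18 samples. Levels of the immediate early genes are CPM after TMM normalization. One library stood apart: in F1/proestrus replicate 5 the markers of sensory ganglion neurons (8 listed, 7 tested) summed to 464 CPM, against 2.38 to 4.38 CPM in the other 17. *Scn10a*, a marker of these neurons, was at 124 CPM there against a median of 0.0373 CPM over all samples. The ventral horn markers were also highest there, at 358 CPM. Male replicate 5 had the highest Schwann cell sum (5005 CPM, the next being 3044) and the lowest ventral horn sum (29.2 CPM). For the immediate early genes, the comparisons between groups and between series, and the correlations with *Fos*, are also given without these libraries where they hold them.

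Per base of exon (RPKM, CPM divided by exon length in kilobases), *Egr1* was the most abundant of the set, at 22.3 ± 2.89 (SD, n = 18), above 88.0% of the 24849 genes that passed a filter on low counts. *Fos* followed at 19.95 ± 3.74 RPKM and *Jun* at 19.94 ± 2.25 RPKM. *Egr1* exceeded *Fos* in 16 of 18 samples, by 2.39 ± 1.62 RPKM (mean and SD of the difference), whereas *Fos* exceeded *Jun* in 9 of 18 (0.016 ± 4.98 RPKM), so the order of *Fos* and *Jun* was not resolved. *Arc* came next at 16.9 ± 2.86 RPKM, *Dusp1* at 13.8 ± 1.3975, *Junb* at 10.4 ± 1.31, *Nr4a1* at 7.83 ± 1.116 and *Ier2* at 5.34 ± 0.925. *Fosb* and *Npas4* stood far lower, at 0.429 ± 0.116 and 0.202 ± 0.0655 RPKM, above 24.4% and 15.9% of genes. *Jun* exceeded *Arc* in 15 of 18 samples and *Arc* exceeded *Dusp1* in 17 of 18. From *Dusp1* down, each gene exceeded the next in 18 of 18. All 10 were nonetheless counted in every sample, with *Npas4* the shallowest at 42 to 181 counts. Fewer cells that express a gene and less RNA per cell cannot be told apart in such bulk samples.

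Among the AP-1 genes, *Fos* (chr12:85473890-85477273 on GRCm38, plus strand), the dimer partner of the JUN proteins, ranged from 37.1 to 60.0025 CPM in F1/proestrus (median 49.7), from 34.0 to 56.1 CPM in F2/metestrus (median 40.4) and from 37.9 to 61.7 CPM in males (median 47.6). The 3 ranges overlapped, and 5 of the 6 F2/metestrus samples lay below every F1/proestrus sample other than replicate 5. *Fosb* (chr7:19302696-19310051, minus strand), whose spliced form accumulates under repeated stimulation, ranged from 1.57 to 3.66 CPM in F1/proestrus (median 2.78), from 1.11 to 2.95 in F2/metestrus (median 2.31) and from 2.53 to 3.90 in males (median 3.11). The males had no sample as low as the lowest females, but 5 of the 6 males lay within the range of F1/proestrus. *Junb* (chr8:84974484-84978718, minus strand), a weaker activator that can oppose JUN, lay between 19.6 and 27.2 CPM in F1/proestrus (median 23.7), 20.3 and 29.6 in F2/metestrus (median 21.6) and 21.8 and 28.1 in males (median 25.6). In F2/metestrus only replicate 3 exceeded 22.8 CPM.

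*Jun* (chr4:95049034-95052222, minus strand), the core AP-1 partner, had the smallest ratio of the highest to the lowest sample of the 4 in each group (1.21 to 1.39). It lay between 58.6 and 76.2 CPM in F1/proestrus (median 61.1), 59.7 and 83.0 in F2/metestrus (median 63.7) and 55.2 and 67.0 in males (median 60.3). The highest values, 83.0 and 76.2 CPM, belonged to F2/metestrus replicate 4 and F1/proestrus replicate 5, which were the samples lowest for *Fos* in their groups. The span of *Jun* overlaps the antisense gene *Junos*, and that of *Junb* overlaps *Prdx2* on the other strand. Whether the counting used the strand is not stated.

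Of the other transcription factors, *Egr1* (chr18:34859823-34864984, plus strand), a zinc finger protein, lay between 82.4 and 116 CPM in F1/proestrus (median 104), 79.4 and 121 in F2/metestrus (median 87.1) and 91.2 and 114 in males (median 108). *Nr4a1* (chr15:101254269-101274795, plus strand), an orphan nuclear receptor, lay between 25.4 and 31.5 CPM in F1/proestrus (median 26.9), 20.2 and 34.2 in F2/metestrus (median 23.4) and 26.2 and 35.2 in males (median 29.1). Of the 6 F2/metestrus samples, 5 lay below the median of F1/proestrus for *Egr1* and 4 for *Nr4a1*, while replicate 3 was the highest of its group for both. *Npas4* (chr19:4984355-4990316, minus strand), a neuronal factor that responds to calcium entry, lay between 0.560 and 1.28 CPM in F1/proestrus (median 0.918), 0.533 and 1.05 in F2/metestrus (median 0.685) and 0.540 and 1.52 in males (median 0.812), a spread wider than any gap between groups.

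*Arc* (chr15:74669083-74672570, minus strand) lay between 43.8 and 65.5 CPM in F1/proestrus (median 52.9), 41.0 and 63.9 in F2/metestrus (median 48.1) and 37.3 and 63.9 in males (median 51.8). *Ier2* (chr8:84661331-84662852, minus strand) lay between 7.69 and 10.6 CPM in F1/proestrus (median 8.72), 6.26 and 9.94 in F2/metestrus (median 6.75) and 6.85 and 10.8 in males (median 7.84). *Dusp1* (chr17:26505590-26562128, minus strand) lay between 41.2 and 53.4 CPM in F1/proestrus (median 49.7), 39.5 and 48.7 in F2/metestrus (median 42.5) and 42.1 and 53.0 in males (median 43.8). The groups overlapped for each of the 3, with *Ier2* in 4 of the 6 F2/metestrus samples below the lowest F1/proestrus sample. The long annotated span of *Dusp1* overlaps *Ergic1* and 3 other gene models, so its counts are less certain.

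**Figure D1:**
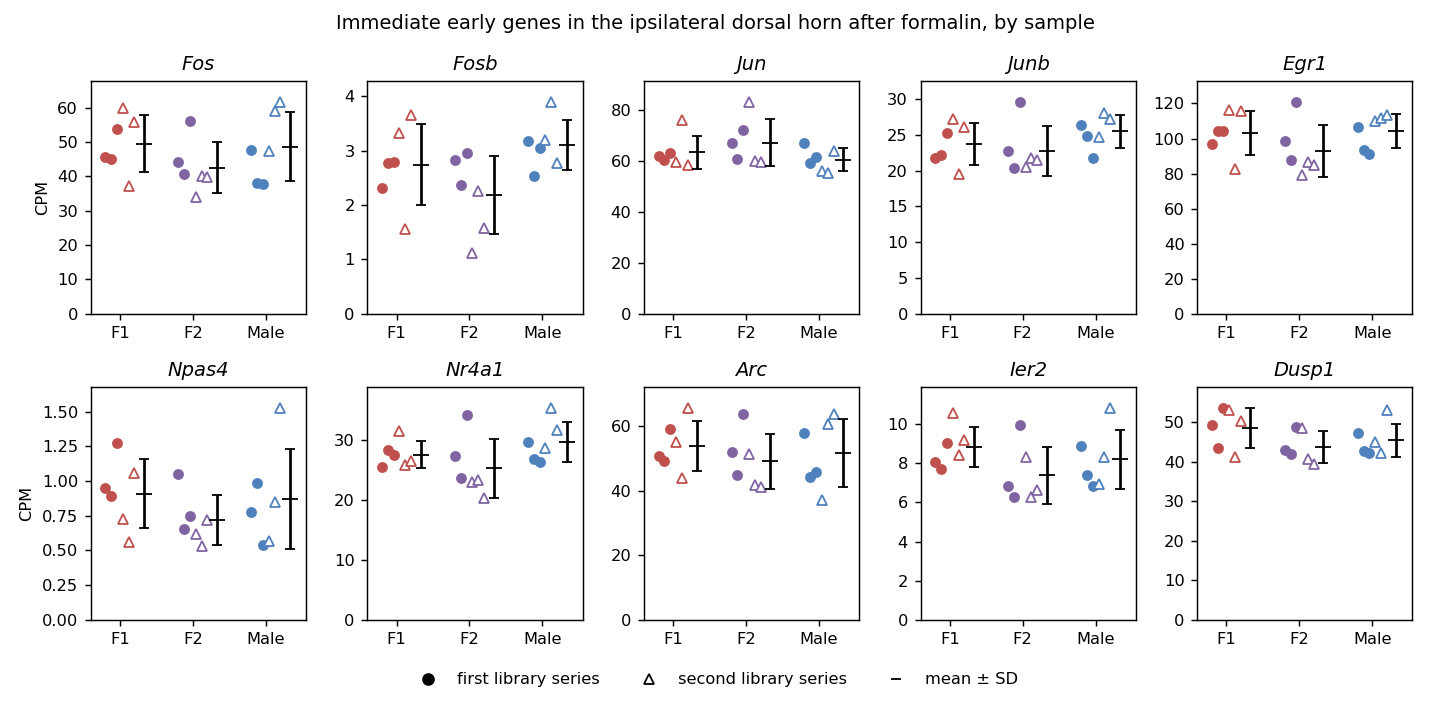
Level of each immediate early gene (CPM, linear axis from 0) in the 18 samples by group, with points for samples marked by library series and the group mean ± SD. The 3 groups overlap for every gene. *Fos*, for example, spans 34.0 to 61.7 CPM over all samples.

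The same samples tended to hold the extremes. F1/proestrus replicate 5 was the lowest of its group for 7 of the 10 genes and the highest for *Jun*. F2/metestrus replicate 3 was the highest of its group for 8 genes, all but *Jun* and *Npas4*. Among males, replicate 6 was the highest for 6 genes and replicate 3 the lowest for 7. The mean of the 10 genes, centred for each gene on the log2 scale, ran from -0.27 in F2/metestrus replicate 6 to 0.30 in male replicate 6.

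Between the female groups, which address whether immediate early gene expression differed with the pattern of pain behavior and cycle stage, 0 of the 10 genes were called by edgeR's quasi-likelihood test at a false discovery rate (FDR) of 5%, against 0% of the 24042 genes tested (0 genes, with 596 or 2.48% at an unadjusted p under 0.05, and 2 called by DESeq2). *Fos* was lower in F2/metestrus by a log2 fold change of -0.22 ± 0.123 (SE), a fold of 0.856 with a 95% interval of 0.714 to 1.03. *Ier2* had a log2 fold change of -0.26 ± 0.120, and it was the only one of the 10 with an unadjusted p under 0.05 (edgeR unadjusted p = 0.0482, adjusted p = 0.99998). *Fosb* and *Npas4*, the least abundant, had the most negative estimates, each -0.33 on the log2 scale, with the widest errors (0.234 and 0.208). The sign was negative for 9 of 10, *Jun* being the exception at 0.081 ± 0.0887, and the median of the 10 was -0.15, against -0.00038 for all genes tested. These genes varied together between samples (below), so the 9 signs are not independent.

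Without F1/proestrus replicate 5 the estimate was -0.29 for *Fos* and 0.14 for *Jun*, and again 0 genes were called. Without F2/metestrus replicate 4, the sample highest for *Jun*, *Jun* was at 0.010. Over the 12 omissions of 1 sample *Fosb* ranged from -0.44 (without F1/proestrus replicate 5) to -0.19 (without F2/metestrus replicate 4) and *Npas4* from -0.47 (without F2/metestrus replicate 1) to -0.21 (without F1/proestrus replicate 3). The estimate stayed negative for the same 9 genes in all 12. *Fos* ranged from -0.32 to -0.16, *Ier2* from -0.36 to -0.20 and *Junb* from -0.15 (without F2/metestrus replicate 3) to -0.017 (without F1/proestrus replicate 4). Within the library series the estimates of *Fos* were -0.044 in the first and -0.42 in the second. *Fosb* had 0.041 and -0.79, *Egr1* -1.07e-05 and -0.33, *Nr4a1* 0.061 and -0.33, *Junb* 0.066 and -0.20, *Arc* 0.013 and -0.29, and *Ier2* -0.11 and -0.40. *Npas4* (-0.34 and -0.32) and *Dusp1* (-0.13 and -0.17) had about the same value in both, and *Jun* was positive in both (0.10 and 0.061). Each series had 3 samples a group, and no gene of the set was called. The difference between the series was not tested. Dorsal horn neuron markers also had negative estimates in F2/metestrus for 15 of 15 genes, with a median log2 fold change of -0.099 and 0 called (-0.14 for the same 15 without F1/proestrus replicate 5, again with 0 called), and their summed level was 301 to 484 CPM in F1/proestrus and 317 to 371 CPM in F2/metestrus. Ventral horn markers had positive estimates for 8 of 10 genes, with a median of 0.28 and 0 called, and summed to 44.2 to 358 CPM in F1/proestrus and 164 to 217 CPM in F2/metestrus. Without F1/proestrus replicate 5 they were positive for 10 of 10, with a median of 0.41 and 0 called. Neutrophil markers were positive for 8 of 8 (median 0.54, and 0.85 without F1/proestrus replicate 5). Microglia markers were positive for 8 of 8 too (median 0.070, and 0.076 without that library). Schwann cell markers were positive for 3 of 8 (median -0.014), and for 7 of 8 without it (median 0.12). Of these 3 lists 0 genes were called each time. Oligodendrocyte markers were also positive for 7 of 7 (median 0.11) and astrocyte markers for 8 of 8 (median 0.040). Mural and meningeal markers were negative for 8 of 10 (median -0.074), general neuron markers for 7 of 10 and endothelial markers for 5 of 8. In each of these lists too 0 genes were called. The part of the marker lists in the result was not tested.

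Between males and all 12 females 0 of the 10 genes passed the threshold, against 0.197% of the 24862 genes tested (49 genes). The largest estimate was that of *Fosb*, higher in males by 0.33 ± 0.186 on the log2 scale (fold 1.26, 95% interval 0.964 to 1.65, edgeR adjusted p = 0.561). *Nr4a1* followed at 0.17 ± 0.0898 and *Junb* at 0.14 ± 0.0816. *Fos* was at 0.080 ± 0.123 (fold 1.06, 0.885 to 1.26) and *Egr1* at 0.089 ± 0.0867. *Arc* (0.0037 ± 0.114) and *Ier2* (0.017 ± 0.118) were nearest to 0, and *Jun* (-0.11 ± 0.0725) and *Dusp1* (-0.022 ± 0.0714) were the only negative ones. The median of the 10 was 0.084, against -0.0013 for all genes tested.

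Without male replicate 5 the estimate was 0.0068 for *Fos* and 0.25 for *Fosb*, and without F1/proestrus replicate 5 it was 0.055 and 0.29. *Arc* turned negative both times (-0.056 and -0.016), and 0 genes of the set were called. The direction for *Fos* depended on the females and on the series. Against F2/metestrus alone *Fos* in males stood at 0.19, and against F1/proestrus alone at -0.035. In the first series alone the estimate for *Fos* was -0.22 and in the second 0.34, with *Npas4* at -0.29 and 0.50. *Fosb* stood at 0.12 and 0.55, *Nr4a1* at -0.022 and 0.35, and *Junb* at 0.029 and 0.24. For *Fosb* the estimate was 0.17 against F1/proestrus alone and 0.50 against F2/metestrus alone. Estimates for several lists of cell type markers leaned one way between the sexes, with few called. Over all genes 49 of 24862 were called, 77 of 24739 without F1/proestrus replicate 5 and 25 of 25160 without male replicate 5. The ventral horn markers were negative in males for 10 of 10 genes with 0 called (median -0.54, sums of 29.2 to 206 CPM in males and 44.2 to 358 CPM in females). Their median was -0.39 without male replicate 5 and -0.42 without F1/proestrus replicate 5, and without both libraries the sums were 76.7 to 206 CPM and 44.2 to 239 CPM. The dorsal horn markers were positive for 14 of 15, with 1 called (median 0.18), for 14 of 15 with 2 called without F1/proestrus replicate 5 (median 0.16), and for 11 of 15 with 1 called without male replicate 5 (median 0.081). The Schwann cell markers were positive for 8 of 8, with 1 called (median 0.52, and 0.41 with 1 called without male replicate 5). Without F1/proestrus replicate 5, 4 of the 8 were called (median 0.57). Neutrophil markers were positive for 8 of 8, with 1 called (*Mpo*) and a median of 1.39, at sums of 9.09 to 30.3 CPM in males and 4.91 to 12.6 CPM in females. Microglia markers were positive for 7 of 8, with 0 called and a median of 0.074, at 354 to 389 CPM and 320 to 363 CPM. Without F1/proestrus replicate 5, 2 neutrophil markers (median 1.48) and 1 microglia marker (median 0.064) were called. Without male replicate 5, 1 neutrophil marker was called (median 1.41). There 6 of 8 microglia markers were positive, with 0 called (median 0.051). The part of these lists in the values of the immediate early genes was not tested.

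Between the library series 0 of the 10 genes passed the threshold, against 27.6% of the 24038 genes tested. Their log2 fold changes, second against first with the group in the fit, ran from -0.16 ± 0.199 for *Npas4* to 0.062 ± 0.101 for *Ier2*, with *Fos* at 0.054 ± 0.112 (fold 1.04, 95% interval 0.883 to 1.22). *Dusp1* had the tightest interval, a fold of 0.906 to 1.08. Without F1/proestrus replicate 5 *Fos* was at 0.13, *Npas4* at -0.065 and *Ier2* at 0.096, and *Junb* (0.040), *Egr1* (0.022), *Arc* (0.0080) and *Dusp1* (0.034) turned positive. Without male replicate 5 *Fos* was at 0.040, *Npas4* at -0.14 and *Ier2* at 0.087, and *Jun* (0.016) and *Dusp1* (0.021) turned positive. Over the 18 omissions of 1 sample *Fos* ranged from 0.016 (without F1/proestrus replicate 4) to 0.13, *Npas4* from -0.32 (without male replicate 6) to -0.065 and *Ier2* from 0.019 (without male replicate 6) to 0.14 (without F2/metestrus replicate 3), with 0 genes of the set called each time. The median of the 10 was -0.030, against -0.015 for all genes. Within the groups the sign was not shared: *Fos* differed between the series by 0.081 in F1/proestrus, -0.31 in F2/metestrus and 0.44 in males. Of the 15 dorsal horn neuron markers 8 were called higher in the second series and 0 lower (12.4% and 15.2% of all genes), with a median of 0.25. Of 8 microglia markers 4 were called higher and 2 lower, and of 8 Schwann cell markers 2 higher and 0 lower. No ventral horn or neutrophil marker was called. The part of these lists in the values of the set was not tested.

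**Figure D2:**
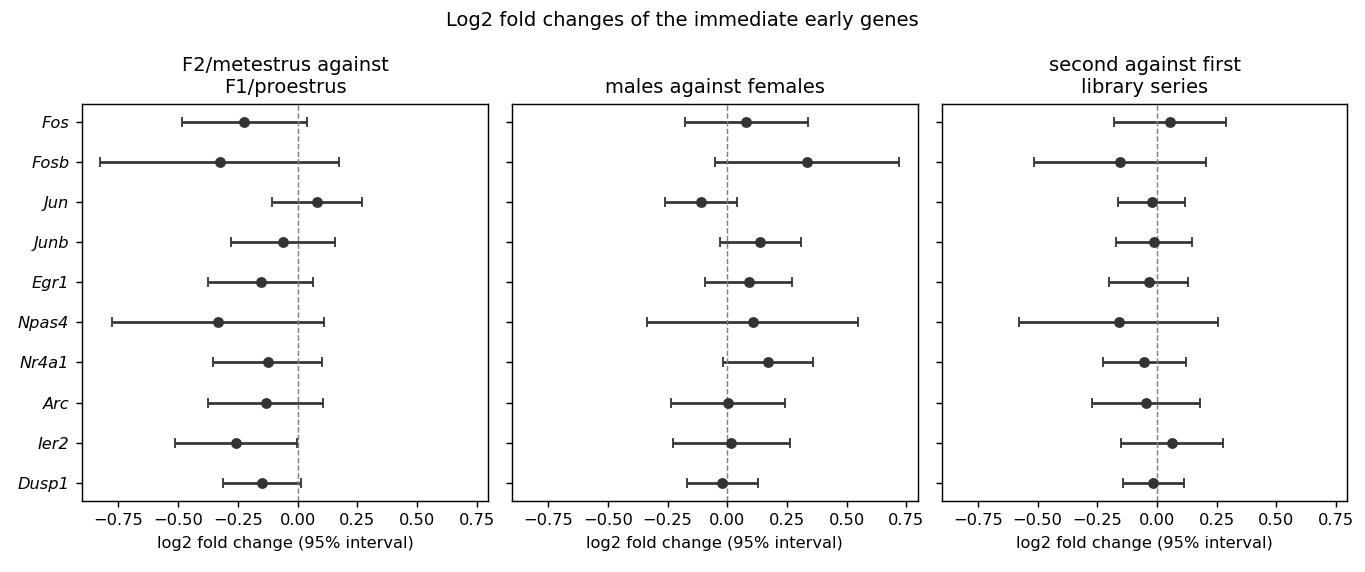
Log2 fold change of each immediate early gene with its 95% interval (edgeR) for F2/metestrus against F1/proestrus, males against females, and the second against the first library series. In the first panel 9 of 10 points lie below 0, and in all panels the intervals include 0 except that of *Ier2* in the first.

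The spread between samples of the same group was large for several of the genes. The SD within a group on the log2 scale was 0.265 for *Fos*, above 94.0% of the 3482 genes of a similar level, whose median was 0.128. *Arc* had an SD of 0.255, above 93.1% of its like, and *Fosb* one of 0.416, above 91.4%. *Egr1* reached 0.182 (83.7%). *Jun* (0.150, 67.5%) and *Dusp1* (0.138, 56.4%) were closer to other genes of their level. The estimates of the 10 genes between the female groups and between the sexes were folds of 0.794 to 1.26.

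This spread was shared. Across the 18 samples, *Fos* and *Egr1* had a Pearson r of 0.921 on log2 CPM (Spearman rho 0.920, both with a permutation p of 1e-05, the smallest that 100000 resamples can give, and an adjusted p over the 9 relations with *Fos* of 4.5e-05 for r). It was 0.907 without the 2 samples farthest from the median of *Fos*, 0.872 in the first series and 0.958 in the second, and 0.914 after each group was centred on its mean. *Junb* followed *Fos* with an r of 0.859 (rho 0.870, permutation p = 1e-05), at 0.678 and 0.975 in the series. *Egr1* was past 0.05 after adjustment in both series, and *Junb* in the second but not in the first (permutation adjusted p = 0.0586). After centring on the group means r was 0.895 for *Junb*.

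The next relations with *Fos* were weaker and less even. *Nr4a1* had an r of 0.770 (rho 0.800, permutation p = 0.00019), *Fosb* 0.730 (rho 0.705, permutation p = 0.00021), *Arc* 0.730 (rho 0.713, permutation p = 0.00089) and *Ier2* 0.701 (rho 0.647, permutation p = 0.00168). *Dusp1* had 0.644 (rho 0.662, permutation p = 0.00468) and *Npas4* 0.574 (rho 0.556, permutation p = 0.0126). With the adjustment over 9 relations these 8 of 9 genes were past 0.05. Without the 2 samples farthest from the median of *Fos*, *Npas4* no longer was (r = 0.430, permutation adjusted p = 0.110). It also missed the threshold without the 2 samples highest for *Jun* (r = 0.493, permutation adjusted p = 0.0591) and in the first series (r = 0.402). In the second series *Npas4* was past it (r = 0.724, permutation adjusted p = 0.0390). *Fosb* followed *Fos* in the second series (r = 0.894) and not detectably in the first (0.295, permutation adjusted p = 0.433). *Arc* had the reverse order, with 0.955 in the first series and 0.673 in the second. Without F1/proestrus replicate 5 the 8 values of r lay between 0.535 and 0.915, and without male replicate 5 between 0.593 and 0.922, with all 8 past 0.05 both times.

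*Jun* was the exception. Its r with *Fos* was -0.363 (rho -0.253, permutation p = 0.139), and the value had opposite signs in the series, 0.709 in the first and -0.660 in the second, neither past 0.05 after adjustment (permutation adjusted p = 0.0512 and 0.0658). Without F2/metestrus replicate 4 and F1/proestrus replicate 5, both of the second series and the highest for *Jun*, r was 0.0955. The negative value thus rests on those 2 samples.

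**Figure D3:**
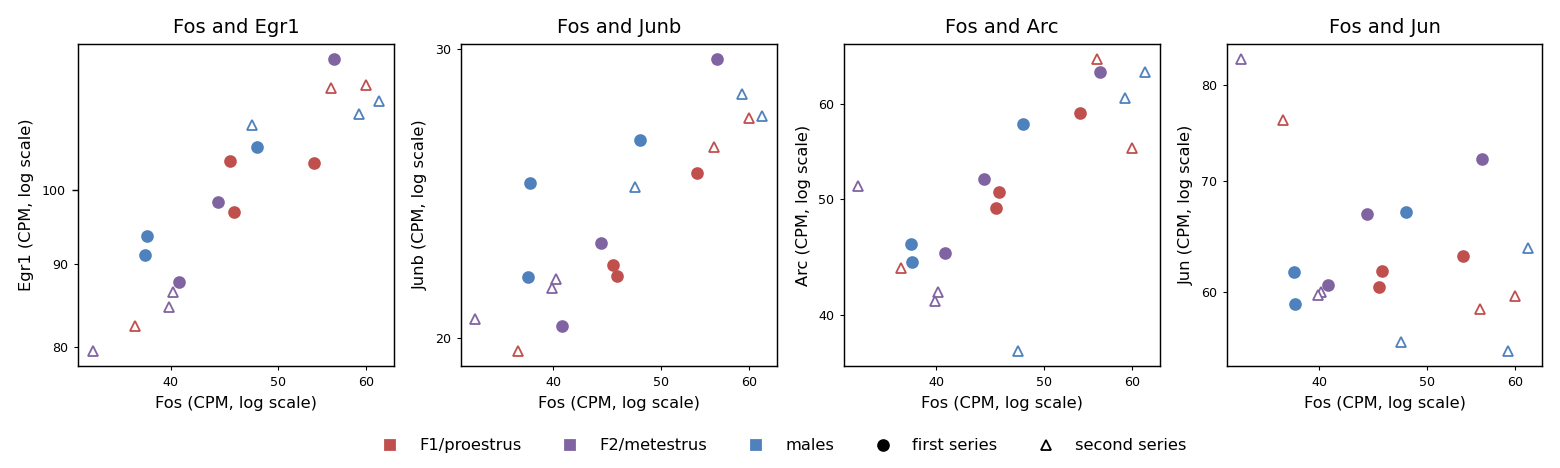
Level of *Fos* (x axis, CPM, log scale) against levels of other immediate early genes (y axis, CPM, log scale), 1 point a sample, coloured by group and marked by library series. *Egr1* is higher where *Fos* is higher (r = 0.921), while *Jun* is highest in 2 samples that are low in *Fos*.

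Over all 45 pairs of the 10 genes, r was positive in 36 of the 36 pairs without *Jun*, with a median of 0.650 and a range of 0.248 to 0.921, and 27 of them were past an adjusted permutation p of 0.05 over the 45. Of the 9 pairs with *Jun*, 3 were positive, and 1 was past that threshold in the negative direction, *Fosb* and *Jun* (r = -0.648, adjusted permutation p = 0.0110), for which r was -0.0826 without the 2 samples highest for *Jun*. Within the series the pairs with *Jun* were positive in 8 of 9 in the first (median r 0.709, *Fosb* with *Jun* at 0.577) and in 2 of 9 in the second (median -0.385, *Fosb* with *Jun* at -0.829). The pairs without *Jun* were positive in 35 of 36 in the first series, *Fosb* with *Npas4* being the exception at -0.211, and in 36 of 36 in the second. High values were found within *Egr1*, *Junb*, *Nr4a1* and *Fos* (*Egr1* with *Junb* 0.903, *Egr1* with *Nr4a1* 0.837, *Junb* with *Nr4a1* 0.827) and within *Arc*, *Ier2* and *Dusp1* (*Ier2* with *Dusp1* 0.829, *Arc* with *Ier2* 0.797, *Arc* with *Dusp1* 0.702). Pairs between these 2 sets of genes ran from 0.437 (*Nr4a1* with *Dusp1*) to 0.730 (*Fos* with *Arc*), and whether the sets differ was not tested. *Fosb* had 0.834 with *Egr1* but 0.248 with *Ier2* and 0.261 with *Dusp1*. The values of 1 sample come from the same library, so pairs are not independent of each other.

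**Figure D4:**
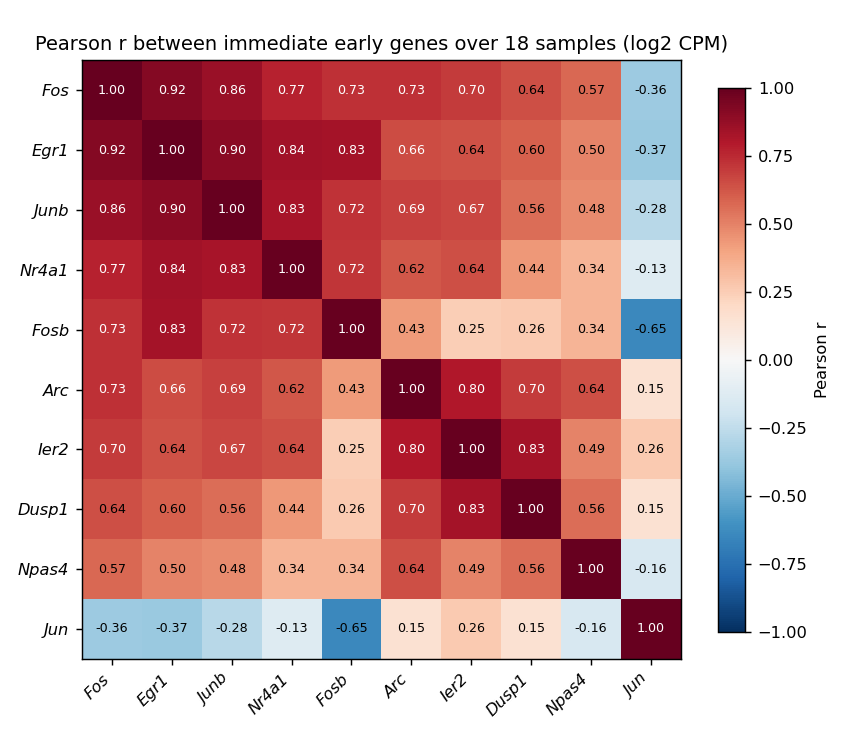
Pearson r on log2 CPM over 18 samples for each pair of immediate early genes, on a scale from -1 (blue) to 1 (red). The row of *Jun* is pale or blue, with its lowest value for *Fosb* (-0.648), while every pair without *Jun* is positive.

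Marker levels of cell types were set against *Fos* in the same way, together with heat shock genes, genes induced by glucocorticoids and the library total, 15 relations in all. None passed an adjusted p of 0.05 for r, with 2 under an unadjusted permutation p of 0.05, the ventral horn score (r = -0.510, rho -0.591, p = 0.0284, adjusted p = 0.293) and the score of general neuron markers (r = -0.489, rho -0.453, p = 0.0390, adjusted p = 0.293). Both had their negative sign in the second series (-0.800 and -0.831) and not in the first (0.177 and 0.0225). The dorsal horn score had an r of 0.408 (rho 0.195, permutation p = 0.0944), at -0.341 in the first series and 0.762 in the second. The library total had an r of -0.179 (rho -0.230, permutation p = 0.475).

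Related genes from lists of the same pathway were read alongside. Of 42 other rapid primary response genes, 0 were called between the female groups and 0 between the sexes, against 0% and 0.197% of all genes. Between the female groups the smallest p was that of *Egr4*, a zinc finger factor of the same family as *Egr1*, at -0.46 ± 0.133 on the log2 scale (edgeR unadjusted p = 0.00370, adjusted p = 0.99998). Between the series 8 of the 42 were called (27.6% of all genes), 5 higher in the second (12.4% of all genes), of which *Jund* (0.38) and *Myc* (0.35) had the largest changes, and 3 lower (15.2% of all genes), *Nr4a3* (-0.48), *Fosl2* (-0.39) and *Per1* (-0.31). *Jund*, *Nr4a3* and *Fosl2* are close relatives of genes of the set, none of which was called there.

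Of 22 genes that respond later to activity, 0 were called between the female groups, and 20 of 22 had a negative estimate (median -0.074). *Penk*, the precursor of enkephalins, was higher in males by 0.63 ± 0.0850 (edgeR adjusted p = 4.49e-04) and was the only one called of the 22, against 0.197% of all genes. It was called with each of the 18 samples left out in turn (0.57 to 0.67), with the lowest value without male replicate 5 (edgeR adjusted p = 0.00165). It was also called in the first series (0.55), but not in the second (0.69, edgeR adjusted p = 0.0546) or against F1/proestrus alone (0.62, edgeR adjusted p = 0.0666). The dorsal horn markers given above had positive estimates in the same comparison, and their part in the value was not tested. *Pdyn*, the precursor of dynorphins, stood at 0.37 ± 0.0778 and missed the threshold (edgeR adjusted p = 0.0537, and 0.244 without male replicate 5). Between the series 10 of the 22 were called, against 27.6% of all genes, 7 of them higher in the second (12.4% of all genes), *Penk* among them (0.22 ± 0.0628, edgeR adjusted p = 0.0140), and 3 lower (15.2% of all genes), with *Acan* at -0.47. Dorsal horn markers were called higher there too, 8 of 15, and their part in these values was not tested. Of 26 upstream regulators (kinases, CREB and SRF with their cofactors), 0 were called between the female groups or the sexes, and 12 were called between the series (27.6% of all genes), 11 of them lower in the second (15.2% of all genes), with *Ep300* at -0.56 and *Creb1* at -0.31, and *Map2k2* higher at 0.21. Of 18 dimer partners and antagonists 0, 0 and 9 were called in the 3 comparisons, in which the shares of all genes were 0%, 0.197% and 27.6%. Of 9 heat shock genes 0, 0 and 1 were called, the last being *Hspb1* (0.39). Of 12 genes induced by glucocorticoids 0, 1 and 5 were called, with *Sult1a1* higher in males by 0.56 ± 0.106 (edgeR adjusted p = 0.0238). That call was lost without F1/proestrus replicate 2, F2/metestrus replicate 1, or male replicate 4, 5 or 6 (0.46 without male replicate 5, edgeR adjusted p = 0.124), and in the first series (0.28, edgeR adjusted p = 0.461).

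As a description of likeness, the median r with *Fos* was 0.730 over the other 9 genes of the set, 0.164 over the 42 rapid genes, 0.177 over the 22 later genes, -0.167 over the 26 regulators and 0.0010 over all 24861 genes tested. An r over 0.5 was found for 8 of the 9, for 6 of the 42 (*Egr4* 0.743, *Gadd45b* 0.629, *Maff* 0.602, *Atf3* 0.562, *Trib1* and *Ier5l* 0.530 each) and for 4.16% of all genes. Among the later genes *Rgs2* (0.610) and *Crem* (0.572) were above that value. *Egr2*, which Schwann cells also express, had -0.282 and is held by both lists, as *Per1* is by the rapid and the glucocorticoid lists and *Arnt2* by the regulators and the dimer partners. *Sst* is likewise held by the later genes and the dorsal horn markers.

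**Figure D5:**
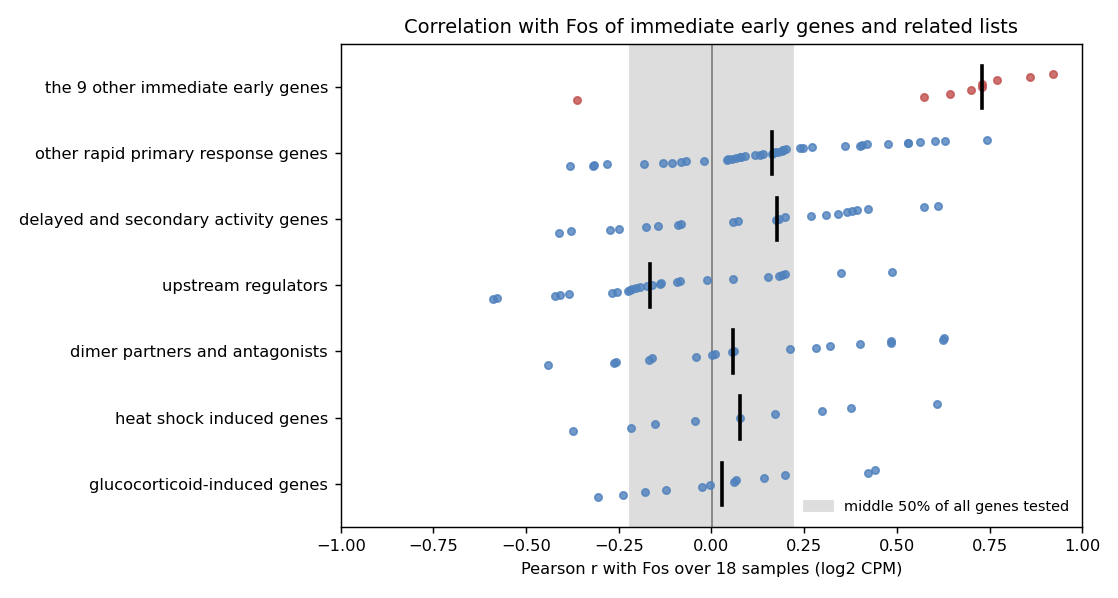
Pearson r with *Fos* on log2 CPM over 18 samples for the 9 other immediate early genes and for each gene of the related lists (points), with the median of each list (black line) and the interquartile range of all genes tested (grey band). The median of the 9 genes is 0.730, and those of the 42 rapid genes and the 26 upstream regulators are 0.164 and -0.167.

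Outside the set, the 10 genes of 24852 most like the mean of the set (r on log2 CPM over 18 samples) were *Cnpy4* (0.799), *Gm6155*, *Gm26205*, *Phf21b* (0.789), *Gm15610*, *Atxn7l2*, *Egr4* (0.769), *Uimc1*, *Gm48900* and *Rassf1* (0.764). *Egr4* was the only gene of the pathway lists among them. It ranged from 4.34 to 8.82 CPM over the samples, while *Gm6155*, *Gm26205* and *Gm48900* lay under 1 CPM throughout.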

How the data were processed

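Polyadenylated RNA from 18 ipsilateral DHSC samples was sequenced. The authors deposited counts that were not normalized, for 55573 Ensembl genes. They had mapped reads uniquely to mm10 (Subread) and counted them over exons (featureCounts). The methods name the TruSeq kit, the labels SMART-Seq amplification of 4 ng RNA and Nextera XT, and the processing notes Subread 2.0.3. From a deposited DESeq2 table of 1 comparison (mean signal, fold changes, p-values) only gene symbols were read, and its values were not used.

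Counts ranged from 73590509 to 125724156 per sample. GENCODE vM21 (GRCm38) held 55480 of the 55573 IDs and gave exon lengths. Genes were filtered with filterByExpr (minimum count 10, total 15), normalized with TMM and tested with edgeR 4.0.16 (quasi-likelihood, Benjamini-Hochberg over all genes, FDR 5%) in R 4.3.3. The methods name DESeq2, run here as an alternative (1.42.0), beside limma voom (3.58.1). Log2 CPM used a prior count of 2. Correlations used 2-sided permutation tests with 100000 resamples (Python 3.11.15, NumPy 2.4.6, SciPy 1.17.1). In those tests the 18 samples were treated as exchangeable. P-values set a difference or a correlation against the variation between these samples. The fits were first run on simulated data with known changes. At a fold of 1.25 they recovered 5.58% of the changed genes between the female groups and 18.1% between the sexes. At a fold of 2 they recovered 83% and 80.2%. Changes of the smaller size would thus mostly be missed.

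The 10 genes, the lists and the comparisons were chosen with earlier results of these data known. Genes outside the set could be named if called in a list, if among the 3 smallest p of a list, or if among the 10 most like the set. Genes named in the lists for their r with *Fos*, and the marker *Scn10a*, were chosen after their values were seen. Of the list names, Ccn1, Ccn2 and Mrtfb were read as *Cyr61*, *Ctgf* and *Mkl2*. Alternatives were other tools, normalizations and filters, a replicate block, the library series, subsets of groups, and leaving out each sample. Those chosen after seeing the data were all 45 pairs (also within the series), the markers between the sexes without either library that stands apart, *Penk*, *Pdyn* and *Sult1a1* with samples left out, and the correlations without the samples highest for *Jun*, without F1/proestrus replicate 5 and without male replicate 5. Samples of a group were not duplicates, with a chi-square per degree of freedom of at least 15.3 between any 2.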

Additional observations from a re-analysis of the deposited data

Results flagged for a closer look

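Of 30 groups of 6 values (10 genes in 3 groups), 2 held a sample far from the others by Dixon's 95% criterion, where chance gives about 1 in 20. *Jun* in F1/proestrus replicate 5 was at 76.2 CPM, with the other 5 samples between 58.6 and 63.1 CPM. This is the library with 464 CPM of sensory ganglion markers, and the part of those markers in the value of *Jun* was not tested. *Junb* in F2/metestrus replicate 3 was at 29.6 CPM, with the other 5 between 20.3 and 22.8 CPM, and the same sample was the highest of its group for 8 of the 10 genes.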

How the results depend on the processing

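No gene of the set was called in any comparison under any alternative, including each sample left out (range 0 to 0). The sign of their log2 fold changes turned in 44 of 310 values under other settings and in 50 values with 1 sample left out, where 430 kept it, and sizes moved too, *Fosb* between the female groups from -0.33 to -0.79 in the second series. For F2/metestrus against F1/proestrus the sign turned in the first series alone: *Fosb* 0.041, *Junb* 0.066, *Nr4a1* 0.061, *Arc* 0.013.

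For males against females it turned with DESeq2 (*Arc* -0.0032), with its size factors (*Arc* -0.0036), with limma voom (*Npas4* -0.050, *Arc* -0.045, *Ier2* -0.000400), in the first series (*Fos* -0.22, *Egr1* -0.085, *Npas4* -0.29, *Nr4a1* -0.022, *Arc* -0.12, *Ier2* -0.058), in the second (*Dusp1* 0.042), against F1/proestrus (*Fos* -0.035, *Npas4* -0.059, *Arc* -0.069, *Ier2* -0.11) and against F2/metestrus (*Dusp1* 0.044). Leaving out 1 sample gave ranges of -0.0074 to 0.14 for *Fos*, -0.14 to 0.21 for *Npas4*, -0.075 to 0.076 for *Arc* and -0.088 to 0.058 for *Ier2*.

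For the series it turned with DESeq2 (*Jun* 6.95e-05, *Junb* 0.0095, *Dusp1* 0.0080), with its size factors (*Junb* 0.0067, *Dusp1* 0.0051), with limma voom (*Junb* 0.039, *Dusp1* 0.013), in F1/proestrus (*Fosb* 0.12, *Jun* 0.071, *Junb* 0.077, *Egr1* 0.043, *Nr4a1* 0.046, *Arc* 0.052), in F2/metestrus (*Fos* -0.31, *Jun* 0.021, *Ier2* -0.12) and in males (*Fosb* 0.17, *Junb* 0.13, *Egr1* 0.20, *Npas4* 0.36, *Nr4a1* 0.21, *Arc* 0.13, *Dusp1* 0.084). Leaving out 1 sample gave -0.059 to 0.020 for *Jun*, -0.042 to 0.047 for *Junb*, -0.062 to 0.022 for *Egr1*, -0.085 to 0.010 for *Nr4a1*, -0.078 to 0.0098 for *Arc* and -0.034 to 0.034 for *Dusp1*.

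Over all genes, DESeq2 called 2 between the female groups. Between the sexes, where edgeR called 49, counts were 166 with DESeq2, 31 with at least 10 counts in every sample, 134 with the series as a covariate, 16 and 13 in the first and second series, 13 against F1/proestrus and 22 against F2/metestrus. Leaving out 1 sample gave 25 to 77, with 77 without F1/proestrus replicate 5, 30 without male replicate 4 and 25 without male replicate 5. Between the series the counts were 77 in F1/proestrus, 781 in F2/metestrus and 1198 in males, with fewer samples in each, and 5832 to 6913 without 1 sample. The cause of the other changes was not tested.

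With the replicate block 148 genes were called between the sexes, 0 of the set in either comparison. Same-numbered samples correlated at -0.105 to 0.228, 9 of 18 pairs over 0.1, and 5 of 18 were highest with their own number, so the numbers were not taken to pair the samples.

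Past the adjusted threshold for r with *Fos*, 8 genes in all samples became 4 in the first series and 5 in the second, with 9 samples each. *Jun* turned from -0.363 to 0.709 in the first series and to 0.0955 without the 2 samples highest for it.

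The depth limits *Npas4* (42 to 181 counts) and *Fosb* (101 to 396 counts) most. In the 3 comparisons of levels (F2/metestrus with F1/proestrus, males with females, and the series), leaving out 1 sample gave no edgeR adjusted p under 0.05 for a gene of the set.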
